A study of Saccharomyces cerevisiae with 6 samples.

Results

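Budding yeast genes often follow each other on the same strand, so that the end of an upstream gene faces the start of the next one. The space between such a pair is called a tandem promoter here. It lies upstream of only 1 of its 2 flanking protein-coding genes, while the space between 2 divergent genes lies upstream of both. RNA genes are not counted in this, and some of these spaces hold one. Of the 1277 peaks that the authors listed for the transcription factor Pdr1 in 2 CUT&RUN libraries, 557 had their summit in a tandem promoter. They were chosen by position: the summit overlapped no protein-coding gene of the R64 gene models, and the flanking protein-coding genes both had W or both had C in their systematic names. Replicate 1 held 352 of them among 792 peaks and replicate 2 held 205 among 485. Another 513 summits lay in divergent spaces, 202 in genes or convergent spaces, and 5, all of replicate 2, lay outside the outermost gene of a chromosome. Gene starts and ends here are those of the gene models, and no mapped transcript starts or ends were used.

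The series holds 6 libraries of Saccharomyces cerevisiae grown in rich YPD medium. The strain labelled YRP10 gave the 2 Pdr1 libraries made with an anti-c-Myc antibody and 2 made with control rabbit IgG. For the related factor Pdr3 there are 2 libraries of the strain Pdr3_3xmyc, 1 with each antibody. In CUT&RUN, an antibody on permeabilised nuclei recruits a nuclease that releases the DNA beside the bound protein. The labels do not say how Pdr1 is tagged in YRP10 or whether the replicates are separate cultures. The 3 c-Myc libraries have a peak list. IgG libraries were not analysed here, so no control antibody value stands beside the values below, and the share of peaks that a control antibody would also give was not tested.

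Pdr1 and Pdr3 are zinc-cluster activators that bind pleiotropic drug response elements in the promoters of the pleiotropic drug resistance (PDR) genes. These genes encode drug-exporting membrane pumps and proteins that move or modify membrane lipids. Pdr1 also acts on stress genes, among them RPN4, which encodes the activator of the proteasome genes. The study's title asks how the sequence beside the binding site changes the activity of both factors. Sequence was not analysed here.

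The strongest peak of replicate 1 lay upstream of PDR16 and the strongest of replicate 2 upstream of RSB1, both known PDR genes. In a list of 20 reported Pdr1/Pdr3 targets, 9 have a tandem promoter in the gene models. All 9 had a summit there in replicate 1, where 11.6% of the 2828 tandem promoters had one. In replicate 2, 7 of the 9 had a summit, against 6.82% of all tandem promoters. The same number, 7 of 9, had a region listed in both replicates, against 5.98% of all tandem promoters. A region was counted as shared when peaks of both replicates overlapped by at least 1 bp, and as tandem when the strongest peak of each replicate had its summit in the same tandem promoter. The target list was chosen with earlier results of these data known, so its counts are a description.

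There were 176 such shared tandem regions among the 409 shared regions of any kind. They lay in 169 promoters on 16 chromosomes, with 87 regions upstream of a W-strand gene and 89 upstream of a C-strand gene. They are ordered below by the mean of the 2 within-list ranks by fold enrichment, the ratio that the authors' peak caller wrote for each peak. The fold enrichments are the authors' values, and they rank peaks within a list only. Across the 176 regions, fold enrichment ranged from 2.18 to 37.5 in replicate 1, with a median of 5.49, and from 2.58 to 25.6 in replicate 2, with a median of 4.99.

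PDR16 encodes a phosphatidylinositol transfer protein that affects membrane lipids and azole resistance, and it held position 1. Its region lay on chromosome XIV from 217248 to 217744 (R64), with the authors' fold enrichment at 37.5 in replicate 1 and 25.04 in replicate 2. Both summits fell on the same base, 447 bp upstream of the PDR16 start (YNL231C). That base was only 34 bp past the end of the upstream gene ELA1 (YNL230C), which encodes the yeast elongin A. The space between these genes is 480 bp long.

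RSB1 (YOR049C) encodes a membrane protein that exports sphingoid long-chain bases, and its region on chromosome XV, 424013 to 425061, held position 2. The fold enrichments were 13.6 and 25.6, and the summits lay 763 and 765 bp upstream of the start. The region of PDR15 (YDR406W), an ABC transporter, spanned 1278425 to 1279151 on chromosome IV. It held position 9, with fold enrichments of 9.67 and 12.1 and summits 370 and 351 bp from the start. TPO1 (YLL028W), a polyamine exporter, held position 16 on chromosome XII, 83803 to 84551, with fold enrichments of 7.71 and 11.9. RSB1, PDR15 and TPO1 ranked 20, 59 and 125 among the 792 peaks of replicate 1, and 1, 10 and 11 among the 485 of replicate 2. The lists differ in length, and the rank number was smaller in replicate 2 for 115 of the 176 regions.

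The other shared targets were RPN4, BDH2 and CIS1. RPN4 (YDL020C) held position 11, with fold enrichments of 11.8 and 6.71 and summits 402 and 387 bp from its start. BDH2 (YAL061W), which encodes a putative alcohol dehydrogenase, held position 17, with 9.80 and 6.22. CIS1 (YLR346C) held position 30, with 14.03 in replicate 1 and 4.63 in replicate 2, ranks 19 and 263. Summits of the 7 shared targets lay 329 to 763 bp from the downstream start in replicate 1 and 290 to 765 bp in replicate 2.

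Targets listed in replicate 1 alone were GRE2 and FLR1. GRE2 (YOL151W) encodes a methylglyoxal reductase. Its peak on chromosome XV, 43479 to 43629, had a fold enrichment of 18.2 and rank 8 of 792, the highest of any tandem peak without a counterpart. FLR1 (YBR008C), a drug exporter of the major facilitator family, had a fold enrichment of 4.04 and rank 546, with the summit 906 bp from its start.

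**Figure D1:**
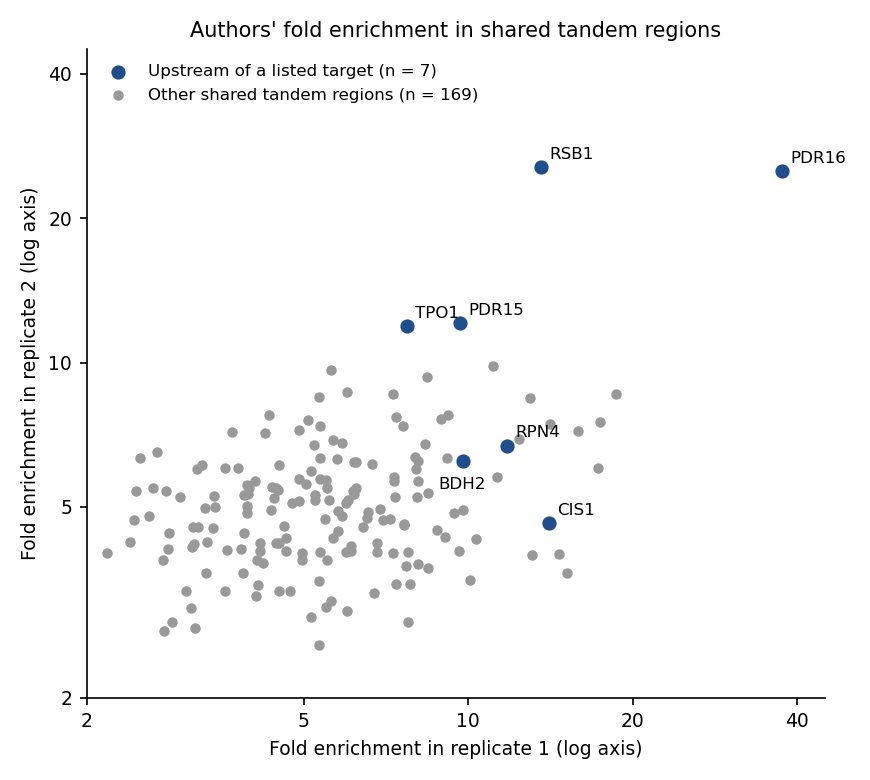
The authors' fold enrichment in replicate 1 (x axis) and replicate 2 (y axis) for the 176 shared tandem regions, both on log axes. Blue points are the 7 regions upstream of listed Pdr1/Pdr3 targets, and grey points are the other 169. PDR16 is far right at 37.5 and 25.04, RSB1 and PDR16 stand above all other regions in replicate 2, and CIS1 is at 14.03 and 4.63.

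The Pdr3 list, from 1 library without a replicate, held 7 peaks, of which 3 had tandem summits. All 3 were in the shared Pdr1 regions of RSB1, PDR15 and TPO1. The fold enrichments in the Pdr3 list were 9.26 for RSB1, 5.48 for PDR15 and 2.36 for TPO1. The Pdr3 summits lay 764, 370 and 474 bp from the downstream starts, against 763, 370 and 471 bp in Pdr1 replicate 1. No Pdr3 peak was listed at PDR16, where both Pdr1 lists had a fold enrichment above 25. No read depth is given in the lists, and how near a Pdr3 peak came to being listed at PDR16 is unknown.

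Of the 25 best-ranked shared tandem regions, the others lay upstream of genes outside the target list. MPF1 (YNL144C) held position 3 with fold enrichments of 18.7 and 8.60. MNN4 (YKL201C), a regulator of mannosylphosphate addition to cell wall proteins, held position 4 with 17.4 and 7.51. HXT3 (YDR345C), a low-affinity glucose transporter, held position 5 with 11.1 and 9.85, and its summits lay 367 and 341 bp from the start in a space that extends 2187 bp further to the upstream gene SVF1. ERG5 (YMR015C), the sterol desaturase of ergosterol synthesis, held position 6 with 13.0 and 8.44. YPL062W held position 7 with 14.1 and 7.45.

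GAC1 (YOR178C), which targets a phosphatase to glycogen synthase, held position 8 with fold enrichments of 15.9 and 7.21 and both summits on the same base, 939 bp from the start. SPO24 held position 10 with 12.4 and 6.92, also with both summits on 1 base, 309 bp from the start. TIP1, a cell wall mannoprotein gene, held position 12 with 9.17 and 7.78. GLN1, the glutamine synthetase gene, held position 14 with 8.93 and 7.62, and its summits were farther apart, at 818 and 660 bp from the start. MIG2, a repressor of glucose-repressed genes, held position 15 with 17.3 and 6.03, and both of its summits fell on 1 base, 320 bp from the start.

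The remaining regions of the first 25 had fold enrichments between 7.28 and 11.3 in replicate 1 and between 5.77 and 9.32 in replicate 2. They lay upstream of the ribosomal protein genes RPS11A and RPL17A, the ribosomal RNA processing gene UTP22, the putative zinc-finger gene CMR3, YKL097C, SVL3 and PMP3. The space upstream of UTP22 also holds the RNA genes SUT126 and YNCG0027W. The list also held MGA1, which encodes a protein similar to heat shock factor, and GCR1, the activator of glycolytic genes. MGA1 had the most distant summits of these, 1042 and 1097 bp from its start, and YKL097C the nearest, at 11 and 29 bp. Only 2 regions, PDR16 and RSB1, ranked in the first 25 of both full lists, and 8 ranked in the first 50 of both.

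**Figure D2:**
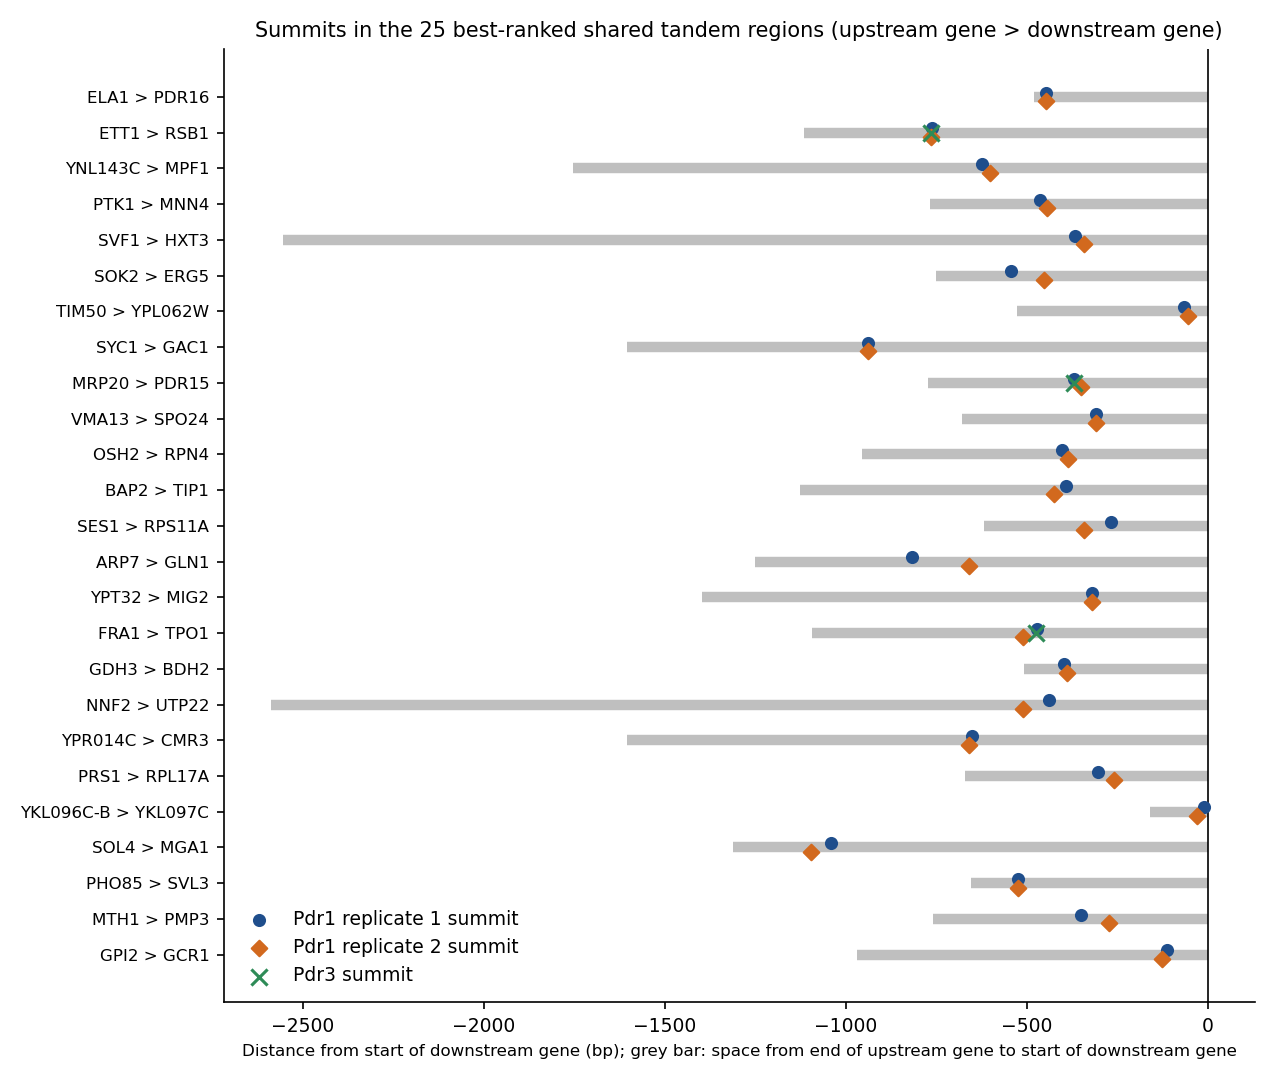
Summit positions in the 25 best-ranked shared tandem regions, as distance in bp from the start of the downstream gene (x axis), best rank at the top. Grey bars span the space from the end of the upstream gene to the start of the downstream gene, circles are replicate 1, diamonds replicate 2 and crosses Pdr3. PDR16 has its summits at the upstream end of its space, YPL062W and YKL097C have theirs beside the start, and the Pdr3 crosses lie on the Pdr1 summits of RSB1, PDR15 and TPO1.

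On average, tandem summits lay about as close to the end of the gene behind them as to the start of the gene in front. The median distance to the downstream start was 378 bp in replicate 1, where the middle 50% of summits lay 258 to 615 bp away. It was 426 bp in replicate 2, with the middle 50% at 303 to 660 bp. Over both lists this is 402 ± 34.3 bp (SD, n = 2). The median distance to the upstream gene end was 351 bp in replicate 1 and 385 bp in replicate 2, or 368 ± 24.04 bp (SD, n = 2). The summit was nearer the downstream start in 171 of 352 replicate 1 peaks (48.6%, 95% Wilson interval 43.4 to 53.8%) and in 101 of 205 replicate 2 peaks (49.3%, 42.5 to 56.1%). Wilson intervals here cover counting error only.

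The class from 201 to 400 bp held the most summits. In replicate 1, 149 tandem summits (42.3%) lay there, 43 (12.2%) within 200 bp and 36 (10.2%) beyond 1000 bp. In replicate 2 these counts were 79 (38.5%), 16 (7.80%) and 21 (10.2%). Summits within 100 bp of the start were rare, at 8 in replicate 1 and 6 in replicate 2. Summits within 100 bp of the upstream gene end numbered 29 and 12.

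Most peaks stayed within their promoter over their whole width. In replicate 1, 301 of 352 peaks (85.5%, 81.5 to 88.8%) began and ended between the 2 genes, and in replicate 2, 182 of 205 (88.8%, 83.7 to 92.4%). Peaks that ran into a gene ran more often into the end of the upstream gene, at 41 in replicate 1 and 18 in replicate 2, than over the downstream start, at 13 and 5.

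**Figure D3:**
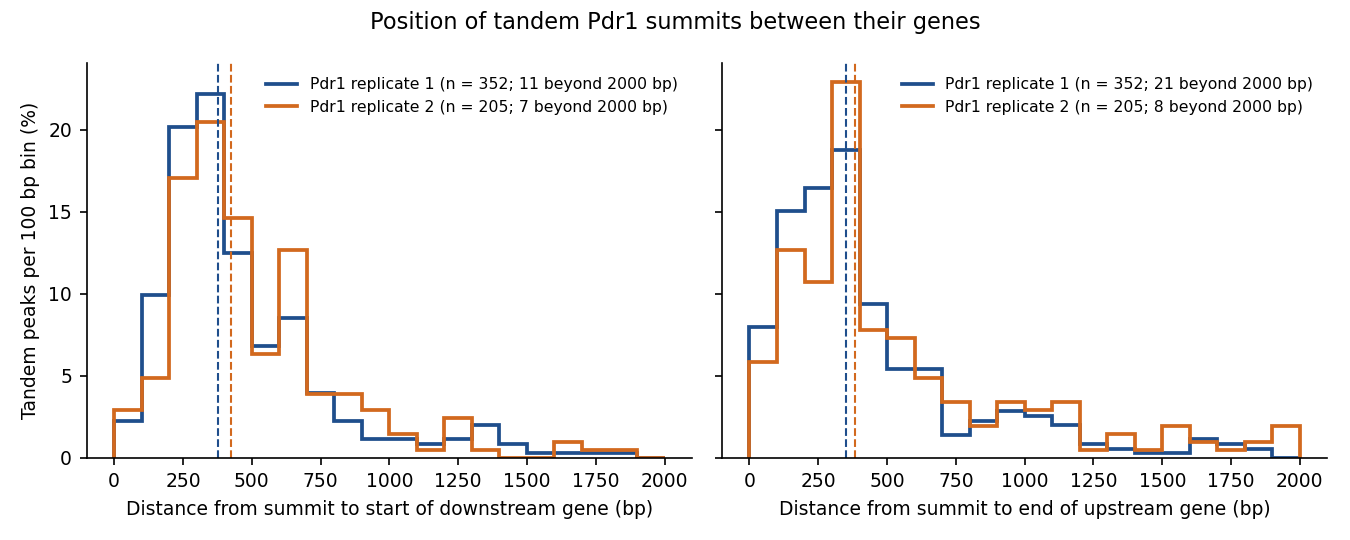
Share of tandem peaks (y axis, percent per 100 bp bin) by distance in bp from the summit to the start of the downstream gene (left) and to the end of the upstream gene (right), for replicate 1 (blue) and replicate 2 (orange). Dashed lines are the medians, 378 and 426 bp to the downstream start and 351 and 385 bp to the upstream gene end, and the legend counts the summits beyond the axis, which are not drawn.

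The closest shared summits to a downstream start were those of YKL097C, at 11 and 29 bp, MIN10, at 49 and 17 bp, and YPL062W, at 67 and 55 bp. Each of these regions ran over its downstream start. The YKL097C space is only 159 bp long, and the region, 258469 to 259120, ran into both flanking genes. The YPL062W region, 431619 to 432397, extended well past the start at 431895. The most distant shared summits lay in long spaces beside flocculin genes, which encode cell wall adhesins and sit near chromosome ends. The summits assigned to YAR064W were 9117 and 9070 bp from its start and 3065 and 3112 bp past the end of FLO1. Those assigned to YHR212W-A were 7032 and 7044 bp from its start, past the end of FLO5. The summits upstream of FLO1 itself were 4805 and 4808 bp from its start. Flocculin genes resemble each other in sequence, and the sources used here do not say how the authors placed reads that match several copies.

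At 9 shared regions both summits were within 100 bp of the upstream gene end. Besides PDR16 these included YOR342C, with summits 31 and 27 bp past YOR343C and fold enrichments of 6.24 and 5.47, and ZEO1, with summits 27 and 8 bp past SHR5 and fold enrichments of 5.34 and 6.32. YOR302W had summits 97 and 42 bp past RAX1, and its fold enrichment was 13.1 in replicate 1, compared with 3.98 in replicate 2. These 3 genes were chosen after their values were seen.

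Regions were also divided by rank into 4 classes of 44. In the best class the median distance to the start was 399 bp in replicate 1 and 407 bp in replicate 2, and in the lowest class it was 375 and 376 bp. The best class had the wider peaks, with a median width of 496 bp in replicate 1 and 285 bp in replicate 2, compared with 271 and 227 bp in the lowest class.

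Replicate agreement was next compared with that of the other peaks. A replicate 2 peak overlapped 181 of the 352 tandem peaks of replicate 1 (51.4%, 46.2 to 56.6%), and the share over all 792 replicate 1 peaks was 52.1%. In the other direction, a replicate 1 peak overlapped 184 of the 205 tandem peaks of replicate 2 (89.8%, 84.8 to 93.2%), and the share over all 485 was 86.2%. The tandem shares are near these backgrounds. In divergent spaces the shares were 55.7% (50.1 to 61.2%) in replicate 1 and 85.1% (79.6 to 89.3%) in replicate 2, and in genes or convergent spaces 45.9% (37.7 to 54.3%) and 85.1% (74.7 to 91.7%). All these intervals overlap within a replicate. Peaks of 1 list are not replicates, and with 2 libraries no test of these differences was made.

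Each list was divided at its quartiles of fold enrichment. Among replicate 1 tandem peaks in the highest class, 60 of 88 (68.2%, 57.9 to 77.0%) had a replicate 2 counterpart, against 37 of 83 (44.6%, 34.4 to 55.3%) in the lowest class. The share did not increase at every step, since the second class was at 37.0% and the third at 56.2%. For divergent peaks of replicate 1 the classes from lowest to highest were at 49.4%, 45.9%, 55.4% and 71.3%. Among replicate 2 tandem peaks the shares were 50 of 51 (98.04%, 89.7 to 99.7%) in the highest class and 37 of 43 (86.05%, 72.7 to 93.4%) in the lowest, with intervals that overlap. In replicate 1 only 13 of the 43 summits within 200 bp of the downstream start had a counterpart (30.2%, 18.6 to 45.1%), compared with 81 of 149 (54.4%, 46.4 to 62.2%) at 201 to 400 bp. In replicate 2 the corresponding counts were 15 of 16 and 72 of 79. The replicate 1 list is the longer one. With that list cut to its strongest peaks, at the length of the replicate 2 list, the tandem shares were 57.01% in replicate 1 and 61.5% in replicate 2. How far list length accounts for the shares by class was not tested.

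**Figure D4:**
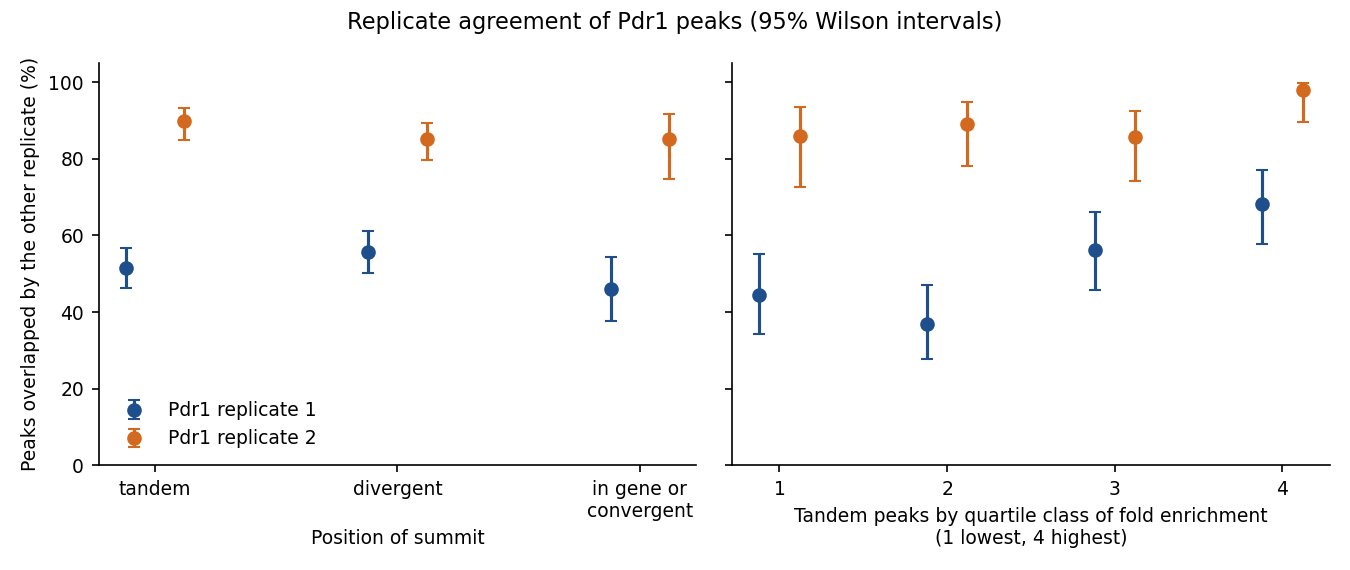
Share of Pdr1 peaks overlapped by a peak of the other replicate (y axis, percent), by position of the summit (left) and, for tandem peaks, by quartile class of the list's fold enrichment from lowest to highest (right). Points are replicate 1 (blue) and replicate 2 (orange) with 95% Wilson intervals. The tandem shares are 51.4% and 89.8%, with intervals that overlap those of the other positions, and in replicate 1 the highest class is at 68.2% and the lowest at 44.6%.

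Where both replicates listed a tandem region, their summits were close. The median gap was 25 bp (quartiles 8 and 54 bp) in the 176 tandem regions, against 27 bp (9 and 77 bp) in the 169 divergent ones. The summits fell on the same base in 17 tandem regions and within 100 bp in 153 (86.9%, 81.2 to 91.1%), against 136 of 169 divergent regions (80.5%, 73.8 to 85.7%). The largest gap was 225 bp in tandem regions and 602 bp in divergent ones. Spearman's rho of fold enrichment was 0.26 over the 176 regions and 0.53 for the −log10 q, given as a description across regions that share their libraries.

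Another 8 shared regions were tandem in 1 replicate and not in the other. They were assigned to CLN3, YBR196C-A, PFK1, UTH1, YLR112W, MOT3, DFG16 and OPT2, and their summits were 16 to 435 bp apart. At PFK1, a glycolytic gene, the fold enrichments were 2.65 in replicate 1 and 6.16 in replicate 2 with summits 16 bp apart, and the replicate 2 summit lay inside YGR240C-A. These regions are not among the 176.

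Among the tandem peaks of replicate 1, 171 had no overlapping replicate 2 peak, with a median fold enrichment of 4.48, compared with 5.45 for those with one. After GRE2 the strongest was upstream of ARE2, a sterol acyltransferase gene, with a fold enrichment of 12.2. SUR2, whose product hydroxylates sphingoid bases, had 12.1. MSN2, the general stress activator, had 11.7, with its summit 751 bp from the start, and ADY2, an acetate transporter gene, had 11.4. These peaks ranked 31 to 36 of 792.

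Only 21 tandem peaks of replicate 2 had no overlapping replicate 1 peak, with a median fold enrichment of 4.64, compared with 4.95 for those with one. The strongest was upstream of YBL111C, at 7.49, followed by YLL066C (5.66), GCR1 (5.29), URA2 (5.11) and RDT1 (5.02). The GCR1 peak was a second one, 548 bp from the start, apart from the shared region at 112 and 127 bp. YBL111C and YLL066C lie in the repeated Y′ elements beside telomeres, as do YHR218W, YRF1-1, YRF1-7, YLR462W and YRF1-5, which were also in this set with fold enrichments of 4.87, 4.64, 4.57, 4.21 and 2.49. The last 5 genes were chosen after their values were seen. Reads from such near-identical copies cannot be assigned with certainty to 1 of them.

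Gene groups other than the target list were compared with the tandem promoter backgrounds of 11.6%, 6.82% and 5.98% given above. All groups were chosen with earlier results known. They are not separate from the target list, since each of its 9 genes with a tandem promoter is also a group member. These are PDR15, FLR1, TPO1, PDR16, RSB1, RPN4, GRE2, BDH2 and CIS1, so their peaks are counted again below. All shared regions of the ABC transporter, lipid and stress groups belong to these genes. Promoter length moves with these shares, as given at the end, and over all tandem promoters its median was 401 bp. It was 1083 bp for the 9 listed targets, 8 of them over 500 bp, 772 bp for the ABC transporters, 762 bp for the drug exporters of the major facilitator family and 699 bp for the stress list. It was 548 bp for the ribosomal protein genes, 458 bp for the lipid genes and 421 bp for the zinc-cluster regulators. How far length accounts for the groups' counts was not tested. Cytosolic ribosomal protein genes had the most members. Of the 60 with a tandem promoter, 35 had a summit in replicate 1, 23 in replicate 2 and 23 a shared region. Their shared summits lay at a median of 255 bp from the start in replicate 1 (161 to 442 bp) and 266 bp in replicate 2 (130 to 464 bp). Over all 176 regions the medians were 393 and 414 bp. The spaces of the 176 regions were long, with a median of 893.5 bp. The 548 bp given above is not a like value, since it covers all 60 ribosomal tandem promoters, with or without a shared region. Spaces of the 23 ribosomal shared regions ran from 321 bp (RPS30A) to 1550 bp (RPL26A). How far space length accounts for the shorter distances was not tested. Their median fold enrichments were 5.25 and 5.16, against 5.49 and 4.99 over all 176 regions. Their median position was 124 of 176, below the middle of the order. RPS11A (8.39 and 9.32) and RPL17A (11.3 and 5.77) ranked best. Many ribosomal protein genes have a close copy elsewhere in the genome. Whether reads in their promoters match more than 1 place was not tested.

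Of 10 hexose transporter genes with a tandem promoter, 6 had a summit in replicate 1 and 5 in both replicates: HXT1, HXT2, HXT3, HXT5 and HXT7. Their fold enrichments were 4.95 to 11.08 in replicate 1 and 3.88 to 9.85 in replicate 2. HXT6 had a peak in replicate 1 alone, at 6.23. HXT6 and HXT7 are near-identical copies, so their peaks cannot be told apart with certainty. The hexose transporter promoters were long, with a median space of 1506 bp, against 401 bp over all tandem promoters.

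Of 10 drug exporters of the major facilitator family with a tandem promoter, 4 had a summit in replicate 1 and 2 in replicate 2, namely TPO1 and AQR1. AQR1, an exporter of short-chain acids and amino acids, held position 31 with fold enrichments of 5.98 and 8.66. QDR2 (5.46) and FLR1 (4.04) had a peak in replicate 1 alone. Of 5 ABC transporter genes with a tandem promoter, PDR15 had a shared region, and PDR12, the weak acid exporter, had a replicate 2 peak alone, at 2.88 and rank 463 of 485. YBT1, NFT1 and VMR1 had none.

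Of 13 lipid and sphingolipid genes with a tandem promoter, PDR16 and RSB1 had shared regions and SUR2 a replicate 1 peak, and the other 10 had no listed tandem summit. Of 14 genes with a tandem promoter in the proteasome regulator and stress list of 20, RPN4, BDH2 and CIS1 had shared regions, and GRE2 and MSN2 replicate 1 peaks. The others were the heat shock protein genes HSP26, HSP30, HSP42, HSP78, HSC82, HSP104, SSA2, SSA3 and SSA4, and none had a summit there. So small a set would hold few summits at the backgrounds given above. Of 17 zinc-cluster regulator genes with a tandem promoter, 1 had a summit, that of ECM22, a sterol regulator, in replicate 1 alone at 7.33 and 1328 bp from the start. PDR1 itself does not have a tandem promoter.

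Longer promoters held a shared region more often. Tandem promoters with a shared region had a median length of 864 bp, and those without one 386 bp. A shared region lay in 2 of 512 tandem promoters of at most 250 bp, in 18 of 1312 of 251 to 500 bp (1.37%, 0.870 to 2.16%), in 87 of 656 of 501 to 1000 bp (13.3%, 10.9 to 16.1%) and in 62 of 348 longer ones (17.8%, 14.2 to 22.2%). In divergent spaces of the same lengths the shares were 0 of 253, 9 of 486 (1.85%, 0.977 to 3.48%), 75 of 530 (14.2%, 11.4 to 17.4%) and 76 of 258 (29.5%, 24.2 to 35.3%). The intervals of tandem and divergent spaces overlapped up to 1000 bp and were apart above it, in spaces with median lengths of 1454 and 1512 bp. A divergent space holds 2 gene starts, and the contribution of that to the difference was not tested. Convergent spaces over 1000 bp, with no gene start, held a shared region in 2 of 80.

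**Figure D5:**
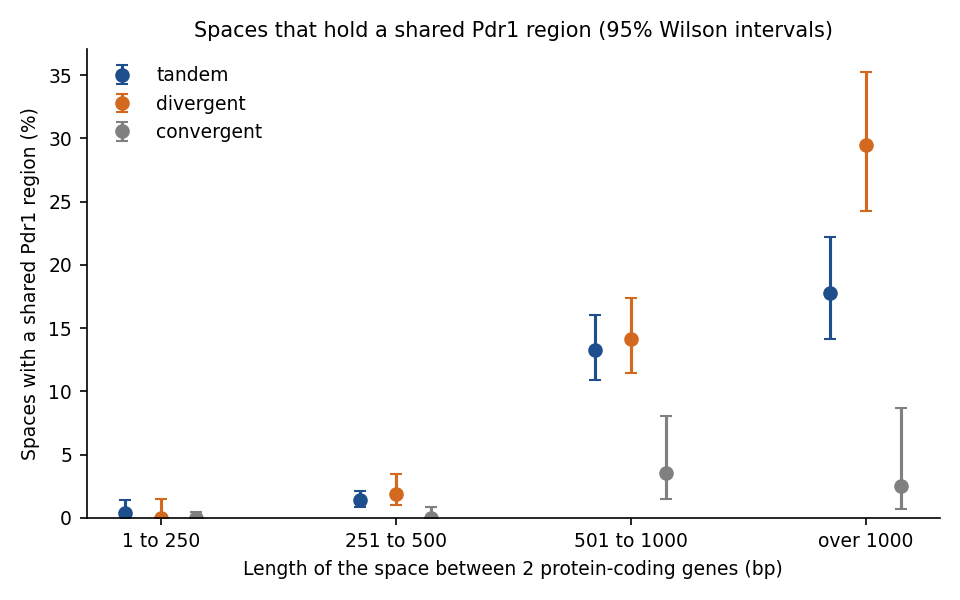
Share of spaces between neighbouring protein-coding genes that hold a shared Pdr1 region (y axis, percent) by length of the space in bp (x axis), for tandem (blue), divergent (orange) and convergent (grey) spaces, with 95% Wilson intervals. Tandem and divergent spaces are close up to 1000 bp, at 13.3% and 14.2% for 501 to 1000 bp, and differ above it, at 17.8% and 29.5%.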

How the data were processed

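Peak lists of 2 Pdr1 c-Myc libraries and 1 Pdr3 c-Myc library were used, grouped by sample title. The submitters' processing notes name Trimmomatic 0.33, Bowtie2, Picard, deepTools, MACS2 2.1.1 and the builds R64 and sacCer3. The sources used here give no settings and do not say how IgG or spike-in reads were used. The deposited lists have no header and follow the narrowPeak column order. The signal column was read as the authors' fold enrichment, a linear ratio whose reference is not stated. Of the deposited −log10 columns, the q-value served as a filter and the p-value was left aside. The deposited score is 10 times the −log10 q. The lists hold no counts, so depth is unknown.

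Gene names, models and strands came from the RefSeq R64 table (6002 nuclear protein-coding genes, 5868 spaces between them). Positions are counted from 1. Summits were classed by flanking genes with Python 3.11.15 and pandas 2.3.3, and the procedure was tested on simulated data. Wilson intervals (95%) came from scipy 1.17.1. Of the listed genes, RTM1 and HXT12 were not matched. The members and gene lists were chosen with earlier results of these data known. Most named genes follow a rule: the first 25 shared tandem regions, listed targets, regions with a Pdr3 peak, the 5 strongest peaks per list without a counterpart, the 3 nearest and 3 farthest regions, PDR1, and examples from the gene groups. Genes named outside this rule are not all marked. Those without a mark include the regions tandem in 1 replicate only, the promoters with several shared regions, and SCR1. Alternatives were a stricter q, RNA genes as genes, shifted summits, stricter overlap, equal list lengths, 1 peak per space and single replicates. Response element searches were planned and not run, because no sequence was used here.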

Additional observations from a re-analysis of the deposited data

How the results depend on the processing

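Of 56 recomputed values other than those with a replicate left out, 40 stayed within 1.5 times the reported count, within the 95% interval of the reported share or median gap, or within 1 SD of the 2 lists, and 16 did not. Keeping peaks with a −log10 q from 10 upwards, the replicate 2 overlap share was 84.2%, the share of summits nearer the downstream start 50.3% and the median fold enrichment 5.38, against 4.88 as reported. With RNA genes counted as genes, the median distance to the upstream gene end was 340 bp and the share nearer the start 44.5%. Moving all summits by 100 bp gave a share of 48.1% to the right, where the listed target PDR16 lost its tandem summit, and a distance to the upstream gene end of 418 bp to the left. A reciprocal overlap of 50% lowered the overlap shares to 38.9% and 66.8%, and left 0 tandem regions with a Pdr3 peak, against 3. Of the listed targets, BDH2 and PDR15 then had no shared region. Summits within 100 bp gave 43.8% and 75.6%. Equal list lengths gave 214 tandem peaks in replicate 1, shares of 57.01% and 61.5%, and a median fold enrichment of 5.47. Equal list lengths shorten the replicate 1 list alone, and a higher q threshold shortens both, by construction. The PDR16 summits are 34 bp from the end of ELA1, so a move of 100 bp takes them past it. Peak widths of 341 and 112 bp at BDH2, and 727 and 156 bp at PDR15, cannot meet a 50% reciprocal overlap. Pdr3 peaks were compared with whole shared regions, which are wider, as at RSB1 (424362 to 424563 against 424013 to 425061). For the other changes the cause was not tested.

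Leaving out a replicate gave 378 to 426 bp to the downstream start, 351 to 385 bp to the upstream gene end, 48.6 to 49.3% nearer the start and a median fold enrichment of 4.88 to 4.89. With 1 list left no region can be shared, so the next values count any tandem peak of that list. They are not like the reported 5.98% of promoters and 7 targets, which count shared regions. A summit lay in 6.82 to 11.6% of tandem promoters and upstream of 7 to 9 listed targets, and 3 tandem peaks overlapped a Pdr3 peak in either case. Leaving out spaces over 3000 bp, chosen after seeing the data, gave 393 and 354 bp. The response element alternatives were not run. No paired analysis was possible because numbered replicates recur between c-Myc and IgG groups of Pdr1 alone, IgG values were not analysed here, and no result comes from a test between groups.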

Other observations

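Shared tandem regions lay in neighbouring promoters of the same gene row in several places. These rows were looked for after the peak lists had been seen. On chromosome II, 4 consecutive tandem promoters held a shared region: those of TAT1 and BAP2, which encode amino acid permeases, TIP1, and NRG2, a glucose-dependent repressor. Fold enrichments were 5.65 in replicate 1 and 6.89 in replicate 2 for TAT1, 6.19 and 5.32 for BAP2, 9.17 and 7.78 for TIP1, and 2.77 and 2.75 for NRG2. The strength was therefore uneven along the row, with NRG2 last of the 176 regions. On chromosome XV, ETT1 and RSB1 are neighbours, with fold enrichments of 14.7 and 4.00 upstream of ETT1, and 13.6 and 25.6 upstream of RSB1. On chromosome XII, TPO1 is followed by ISA1, with 8.05 and 5.24 upstream of ISA1. On chromosome XIV, SUN4 (3.11 and 3.08) is followed by AQR1 (5.98 and 8.66), and on chromosome VIII, HXT5 by HXT1.

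In 7 tandem promoters 2 separate shared regions were listed. They belonged to BSC1, MRX16, IMA3, YIR018C-A, TOS8, YGL006W-A and HXT1, and the spaces were 1785 to 4565 bp long. Upstream of HXT1, the main low-affinity glucose transporter gene, the region at 1047 and 1073 bp from the start had fold enrichments of 6.22 and 6.20, and the region at 439 and 363 bp had 2.86 and 2.88. The 2 regions assigned to YIR018C-A lie past the end of FLO11, 2779 and 2940 bp from the start for the farther one. In 18 of the 176 shared tandem regions the space also held an RNA gene, such as SCR1, the RNA of the signal recognition particle, upstream of YER137C. The share over all tandem promoters is not given here, so this count is a description only.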
